A study of Mus musculus with 7 samples.

Results

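The serum amyloids, pentraxins and orosomucoids are secreted plasma proteins of the acute phase, and their transcripts were followed here in mouse liver through 10 genes chosen by symbol: Saa1, Saa2, Saa3, Saa4, Apcs, Crp, Orm1, Orm2, Orm3 and Lcn2. All 10 were found among the 14889 genes of the deposited table, and all 10 passed the filter on low counts that left 13693 genes for testing. The livers came from ApoE-/- mice of the C57BL/6 strain, aged 4 months, every one of which ate a Western diet over 3 months. In the treated group 3 mice received PX-478, the N-oxide of melphalan used as an inhibitor of HIF-1α, at 40 mg/kg by intraperitoneal injection, and in the control group 4 mice received saline by the same route, both on a schedule the labels call bi-weekly. All groups thus lack apolipoprotein E, which normally lets remnant lipoproteins be cleared, and no wild-type or chow-fed mice were compared. The question put to these genes was whether their liver transcripts differed when the inhibitor was injected in place of saline.

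In the acute phase response, cytokines such as interleukin-6, interleukin-1 and tumour necrosis factor reach the hepatocyte and act through STAT3, NF-κB and C/EBP factors to raise the output of defence proteins. Saa1 and Saa2 encode the inducible serum amyloid A proteins, which travel on high-density lipoprotein and are the precursors of amyloid A deposits. Saa4 encodes the constitutive member of that family, and Saa3 encodes one that in mice is made largely outside hepatocytes, macrophages and adipocytes included. Apcs encodes serum amyloid P, the main acute phase pentraxin of the mouse, whereas Crp, C-reactive protein, responds only modestly in this species. Orm1, Orm2 and Orm3 encode orosomucoids, also called α1-acid glycoproteins, which carry small molecules in plasma. Lcn2 encodes lipocalin-2, which binds bacterial iron carriers and is made by hepatocytes under stimulation and by neutrophils.

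The genes lie in 4 places of the mouse genome (positions from RefSeq, build GRCm38.p6). Saa3, Saa4, Saa1 and Saa2 stand side by side on chromosome 7, from 46711998 at the start of Saa3 to 46754313 at the end of Saa2. Orm1, Orm3 and Orm2 stand on chromosome 4 from 63344556 to 63365877, Crp and Apcs on chromosome 1 from 172698056 to 172895054, and Lcn2 on chromosome 2 from 32384637 to 32387739. Saa1 and Saa2 are close copies: 31.1% of the 50-base windows of Saa1 transcripts and 29.97% of those of Saa2 occurred in the other gene (GENCODE M21). Of the Orm1 windows 20.4% occurred in Orm2, while 3.6% of the Orm3 windows occurred in Orm2 and 2.2% in Orm1. Of the Saa4 windows 0 occurred in the other Saa genes. Windows were pooled over all annotated transcripts of a gene, 2519 for Saa1 and 726 for Orm1, whose principal transcripts have 609 and 775 bases. The shares of Saa and Orm genes therefore have unlike bases, and shares for the principal transcripts alone were not computed. The split of reads between Saa1 and Saa2, and between Orm1 and Orm2, may be less certain than their sums, since the treatment of reads that match both copies is not known here.

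Promoters are shown as windows of 300 bases, 250 before to 50 after the start, and RefSeq gave them for 9 of the 10 genes, Orm1 being without one. Those of Saa1 and Saa2 are shown because this pair had the largest fold changes, those of Orm2 and Orm3 because these neighbours had unlike profiles, and that of Saa3 because its profile departed from that of Saa1. The start is that of the RefSeq transcript behind the window, which is the 5′ end of the gene as positioned above for 6 of the 9. In Saa3 it lies 3939 bases inside that span, in Saa1 201 bases and in Orm3 89 bases. Capitals mark matches to TTGNNCAA, a C/EBP motif, and to TATAAA.
Saa1, chr7:46742931-46743230 (minus strand): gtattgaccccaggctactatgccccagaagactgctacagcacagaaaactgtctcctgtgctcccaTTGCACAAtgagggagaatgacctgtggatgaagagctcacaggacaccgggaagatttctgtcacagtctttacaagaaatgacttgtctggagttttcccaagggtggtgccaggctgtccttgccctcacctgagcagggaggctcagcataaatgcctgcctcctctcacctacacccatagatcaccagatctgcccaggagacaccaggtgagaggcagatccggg
Saa2, chr7:46751583-46751882 (plus strand): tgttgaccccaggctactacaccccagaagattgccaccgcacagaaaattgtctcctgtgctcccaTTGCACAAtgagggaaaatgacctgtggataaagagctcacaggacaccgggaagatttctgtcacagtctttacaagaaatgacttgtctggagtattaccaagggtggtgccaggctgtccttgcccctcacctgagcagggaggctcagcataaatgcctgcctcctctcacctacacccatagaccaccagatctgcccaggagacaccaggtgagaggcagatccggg
Saa3, chr7:46715627-46715926 (minus strand): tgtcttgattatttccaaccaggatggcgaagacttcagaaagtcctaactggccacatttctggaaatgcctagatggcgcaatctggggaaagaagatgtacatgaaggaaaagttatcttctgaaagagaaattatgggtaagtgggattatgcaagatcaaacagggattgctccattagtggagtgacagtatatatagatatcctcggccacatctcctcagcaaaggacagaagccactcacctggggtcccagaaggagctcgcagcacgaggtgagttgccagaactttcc
Orm2, chr4:63362199-63362498 (plus strand): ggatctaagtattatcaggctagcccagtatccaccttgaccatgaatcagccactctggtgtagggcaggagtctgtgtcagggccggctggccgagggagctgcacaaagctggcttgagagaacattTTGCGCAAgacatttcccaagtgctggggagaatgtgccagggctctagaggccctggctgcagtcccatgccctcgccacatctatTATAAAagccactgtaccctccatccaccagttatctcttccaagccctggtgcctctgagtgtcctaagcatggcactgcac
Orm3, chr4:63355908-63356207 (plus strand): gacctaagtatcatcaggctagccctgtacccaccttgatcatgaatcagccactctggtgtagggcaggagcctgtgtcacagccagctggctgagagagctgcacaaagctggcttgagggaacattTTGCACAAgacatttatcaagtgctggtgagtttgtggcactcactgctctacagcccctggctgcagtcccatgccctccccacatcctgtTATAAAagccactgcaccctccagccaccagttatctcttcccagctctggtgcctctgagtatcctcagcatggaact

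Saa1 and Saa2 were identical at 95.3% of the alignment, gaps included, with 12 mismatches, and Orm2 and Orm3 at 86.2%, with 32 mismatches. Saa1 and Saa3 were alike at 50.1%, against 51.3% for Saa1 and Lcn2, genes of different families. On both strands the C/EBP motif TTGNNCAA was found in 6 of the 9 windows (Saa1, Saa2, Saa4, Orm2, Orm3 and Lcn2), against 6.4% of 32817 promoter windows of this length in the genome. Counted from the start, with negative positions before it, the motif began at -182 in Saa1, at -183 in Saa2, at -120 in Orm2 and at -121 in Orm3. TATAAA was found in 3 windows (Crp, Orm2 and Orm3; 13.6% of all), the STAT motif TTCNNNGAA in that of Apcs (8.29% of all), and the NF-κB consensus (8.46% of all) and the HIF motif ACGTG (19.6% of all) in 0 windows. No match of one motif overlapped one of another. These are matches of letters, and the close copies count separately, so the 6 are not independent.

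Each library held 10285776 to 17257304 counted reads, and levels are given in CPM, read counts brought to a common library size with edgeR's TMM scaling. PX-478 replicate 2 had the lowest total and the lowest share of reads from mitochondrial genes, 22.4% against 27.1% to 36.7% in the other 6. Hepatocyte transcripts were abundant throughout, with Alb at 18840 ± 3232 CPM in PX-478 livers and 23550 ± 3103 CPM in saline livers (SD, n = 3 and n = 4). Since housing and handling of the mice are not in the labels, a p-value here speaks of the spread among these 7 samples, part of which may be technical. In whole liver, fewer cells of a type and less RNA per cell cannot be told apart.

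All 10 transcripts had lower mean levels in PX-478 livers than in saline livers, and 0 of the 10 passed edgeR's quasi-likelihood test at an adjusted p of 0.05. Across all genes that test called 0.0073% as lower (1 gene, Cfd) and 0% as higher. The log2 fold changes of PX-478 over saline ran from -2.16 for Saa2 to -0.30 for Orm3, with a median of -1.03, while the median of all genes tested was near 0 and 50.3% of them were lower. Without saline replicate 4 the median of the 10 was -0.66 and 9 of them lay below 0, Orm3 being above, again against 50.3% of all genes. At an unadjusted p under 0.05, 5 of the 10 were lower (Saa3, Apcs, Lcn2, Crp and Orm2), against 3.48% of all genes. In 3 of the 10 (Saa3, Apcs and Crp) the groups did not overlap in TMM-scaled CPM, every PX-478 library lying below every saline library, against 4.29% of all genes, while 4.3% lay wholly above. Without that scaling Crp overlapped, as given below. These 10 genes share regulators and the same 7 livers, so their counts are not those of independent genes.

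**Figure D1:**
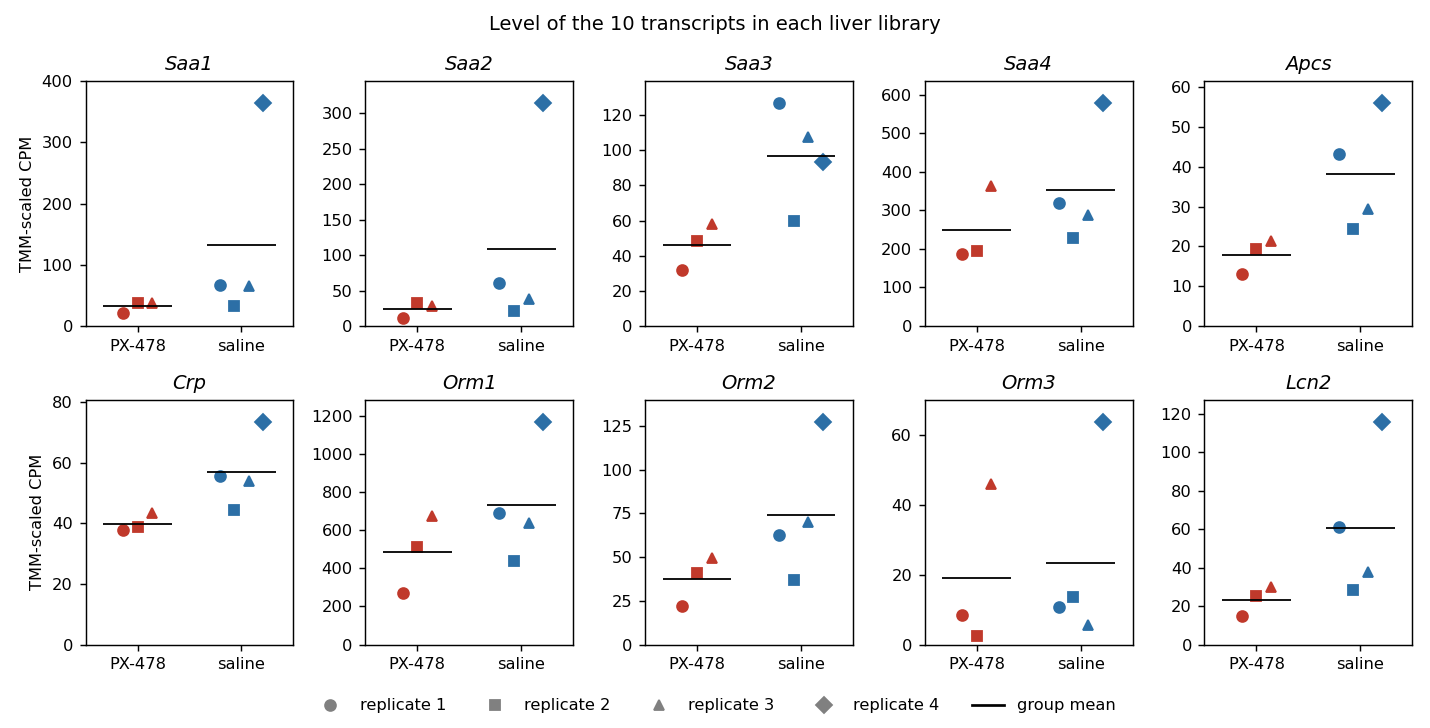
Level of each transcript in TMM-scaled CPM (vertical axes, each from 0) in the 3 PX-478 and 4 saline libraries, with marker shape for the replicate number and a line at the group mean. Saline replicate 4 stands highest of its group in 9 of the 10 panels, and Saa3, Apcs and Crp are the 3 in which the groups do not overlap.

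The inducible serum amyloids Saa1 and Saa2 carried the largest fold changes and the widest spread within saline. Saa1 stood at 21.6, 38.3 and 38.4 CPM in the PX-478 libraries and at 67.4, 32.9, 66.0 and 364 CPM in the saline libraries. Saa2 stood at 11.7, 32.5 and 28.6 CPM in PX-478 livers and at 60.0, 21.7, 38.2 and 314 CPM in saline livers. In both genes, saline replicate 4 lay far above every other library, saline replicate 2 lay inside the PX-478 range, and the groups overlapped. The means were 32.8 ± 9.66 CPM (SD, n = 3) in PX-478 and 133 ± 155 CPM (SD, n = 4) in saline for Saa1, which gave a log2 fold change of -2.02 with an SE of 0.93 (95% interval -4.28 to 0.24; adjusted p = 0.736 in edgeR). Saa2 averaged 24.3 ± 11.1 CPM (SD, n = 3) in PX-478 and 108.5 ± 138 CPM (SD, n = 4) in saline, with a log2 fold change of -2.16 and an SE of 1.097 (95% interval -4.87 to 0.55; adjusted p = 0.766 in edgeR).

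Without saline replicate 4, where edgeR called 0 of the 10 genes and 0.00747% of all genes lower (0.0299% higher), the log2 fold change of Saa1 was -0.76 (SE 0.31, adjusted p = 0.672 in edgeR) and that of Saa2 -0.72 (SE 0.43, adjusted p = 0.795 in edgeR). At an unadjusted p under 0.05, 4 genes were then lower (Saa1, Saa3, Apcs and Lcn2), against 3.02% of all genes. A single library thus supplied more than 1 log2 unit of both fold changes. Counted as 1 gene, Saa1 and Saa2 together held 33.3, 70.8 and 67.0 CPM in PX-478 livers and 127, 54.6, 104 and 678 CPM in saline livers. The log2 fold change of that sum was -2.08 (SE 0.98, adjusted p = 0.736 in edgeR), and -0.74 without saline replicate 4, close to the values of the separate copies. The ratio of Saa1 to Saa2 within a library was 1.18 to 1.85 in PX-478 and 1.12 to 1.73 in saline, overlapping widely.

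Saa3 differed from its neighbours in which libraries were high. It stood at 31.6, 48.6 and 58.2 CPM in the PX-478 libraries and at 127, 59.5, 108 and 93.0 CPM in the saline libraries. The highest saline library was replicate 1, not replicate 4, and the highest PX-478 library lay just below the lowest saline one. Its log2 fold change of -1.07 had an SE of 0.27 and a 95% interval of -1.66 to -0.47 (adjusted p = 0.358 in edgeR), and it was -1.09 without saline replicate 4. DESeq2 called Saa3 lower (adjusted p = 0.0439), the one call among the 10 genes in that tool, which called 0.242% of genes lower.

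Saa4, the constitutive family member, stood at 187, 194 and 364 CPM in PX-478 livers and at 320, 228, 288 and 578 CPM in saline livers. PX-478 replicate 3 lay above 3 of the 4 saline libraries, and the log2 fold change was -0.51 (SE 0.34, adjusted p = 0.795 in edgeR), or -0.17 without saline replicate 4. Set against Saa4 in the same library, Saa1 had a ratio of 0.105 to 0.197 in PX-478 and of 0.144 to 0.229 in saline replicates 1 to 3, against 0.630 in saline replicate 4. Saa3 over Saa4 was 0.160 to 0.250 in PX-478 and 0.261 to 0.396 in saline replicates 1 to 3, but 0.161 in saline replicate 4. The library with the most Saa1 for its Saa4 was therefore, among saline libraries, the one with the least Saa3 for its Saa4. Both ratios divide by Saa4, which was highest in that library at 578 CPM. Saa3 itself, at 93.0 CPM there, lay inside the range of the other saline libraries, 59.5 to 127 CPM.

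**Figure D2:**
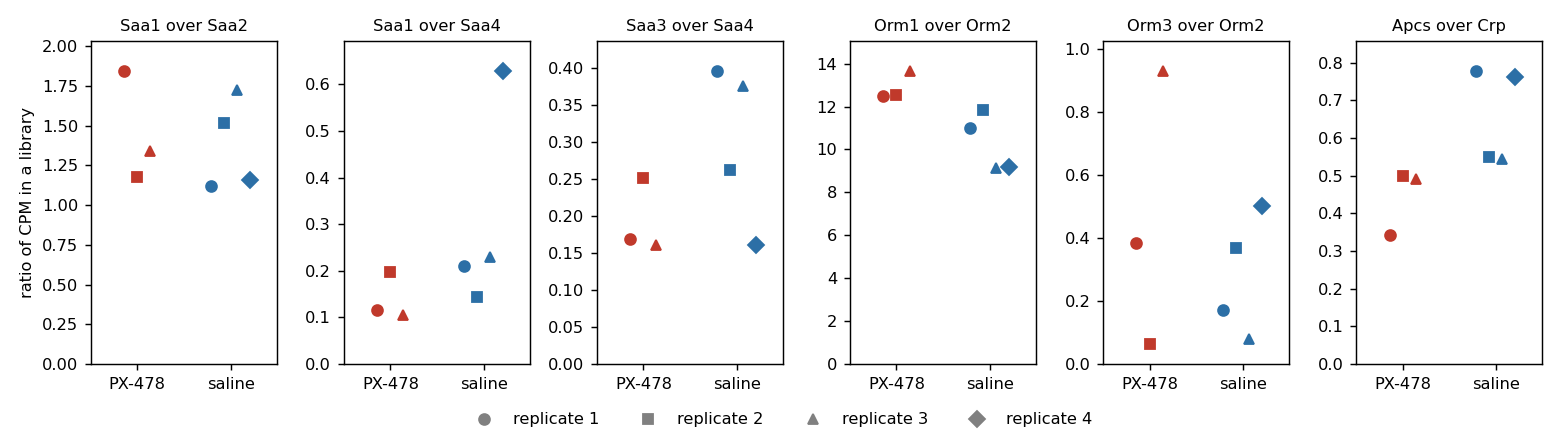
Ratio of CPM between 2 of the genes within each library (vertical axes, each from 0), for 3 PX-478 and 4 saline libraries, with marker shape for the replicate number. Saa1 over Saa4 is 0.630 in saline replicate 4 and at most 0.229 elsewhere, and the groups separate for Orm1 over Orm2 and for Apcs over Crp.

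In TMM-scaled CPM both pentraxins, Apcs and Crp, separated the groups without overlap. Apcs, serum amyloid P, stood at 13.0, 19.3 and 21.3 CPM in PX-478 livers and at 43.2, 24.5, 29.4 and 55.9 CPM in saline livers. Its log2 fold change of -1.10 had an SE of 0.29 (95% interval -1.74 to -0.46; adjusted p = 0.404 in edgeR) and was -0.86 without saline replicate 4. Crp stood at 37.8, 38.6 and 43.2 CPM in PX-478 livers and at 55.4, 44.4, 53.8 and 73.4 CPM in saline livers. Its coefficient of variation in PX-478 livers, 7.36%, was the lowest of the 10 genes, and its log2 fold change of -0.51 had an SE of 0.20 (95% interval -0.94 to -0.08; adjusted p = 0.644 in edgeR). The log2 fold change of Crp was -0.36 without saline replicate 4. With library size alone in place of TMM it was -0.37 (SE 0.23, adjusted p = 0.839 in edgeR). Without TMM the Crp groups overlapped: PX-478 replicate 2 had 510 of 10285776 reads and saline replicate 2 had 512 of 10962670. The ratio of Apcs to Crp within a library was 0.343, 0.500 and 0.492 in PX-478 and 0.779, 0.551, 0.545 and 0.762 in saline, without overlap. It was one of 6 ratios looked at, chosen after earlier results were known, and was not tested.

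Orm1 was the most abundant of the 10 and Orm2 had the larger fold change of the pair. Orm1 stood at 273, 511 and 674 CPM in PX-478 livers and at 690, 436, 639 and 1169 CPM in saline livers, and 2 of the 3 PX-478 libraries lay above the lowest saline one. Its log2 fold change of -0.59 had an SE of 0.36 (95% interval -1.38 to 0.19; adjusted p = 0.778 in edgeR). Orm2 stood at 21.9, 40.7 and 49.3 CPM in PX-478 livers and at 62.8, 36.9, 69.9 and 127 CPM in saline livers, with a log2 fold change of -0.99 (SE 0.41, 95% interval -1.92 to -0.07, adjusted p = 0.692 in edgeR). Without saline replicate 4 these were -0.28 for Orm1 and -0.60 for Orm2. The ratio of Orm1 to Orm2 was 12.47, 12.55 and 13.67 in PX-478 and 10.99, 11.8, 9.13 and 9.18 in saline. The groups did not overlap, though the copies share sequence, and in saline replicate 3 the count columns differed beyond sampling noise for both genes (10091 and 9228 reads of Orm1, 954 and 1163 of Orm2).

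Orm3 followed neither neighbour. It stood at 8.36, 2.57 and 45.9 CPM in PX-478 livers and at 10.7, 13.5, 5.62 and 63.7 CPM in saline livers. PX-478 replicate 3 and saline replicate 4 were high and the other 5 libraries lay at or below 13.5 CPM, so each group held 1 high library. Its log2 fold change of -0.30 had an SE of 1.25 (95% interval -3.40 to 2.79; adjusted p = 0.971 in edgeR) and was 0.94 without saline replicate 4 and -2.09 without PX-478 replicate 3. Its ratio to Orm2 ran from 0.0632 to 0.930 in PX-478 and from 0.0803 to 0.500 in saline. At the lowest, in PX-478 replicate 2, Orm3 rested on 34 reads. Orm1, Orm2 and Orm3 together held 303, 554 and 769 CPM in PX-478 livers and 763, 486, 714 and 1360 CPM in saline livers (log2 fold change -0.62, SE 0.37, adjusted p = 0.783 in edgeR). Without saline replicate 4 the log2 fold change of this sum was -0.27 (SE 0.32, adjusted p = 0.885 in edgeR).

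Lcn2 stood at 14.9, 25.4 and 29.9 CPM in PX-478 livers and at 61.0, 28.3, 37.9 and 116 CPM in saline livers. PX-478 replicate 3 lay just above saline replicate 2, and otherwise the groups were apart. The means were 23.4 ± 7.69 CPM (SD, n = 3) in PX-478 and 60.8 ± 39.2 CPM (SD, n = 4) in saline. Its log2 fold change of -1.38 had an SE of 0.49 (95% interval -2.50 to -0.25; adjusted p = 0.643 in edgeR), or was -0.86 (SE 0.32, adjusted p = 0.617 in edgeR) without saline replicate 4.

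**Figure D3:**
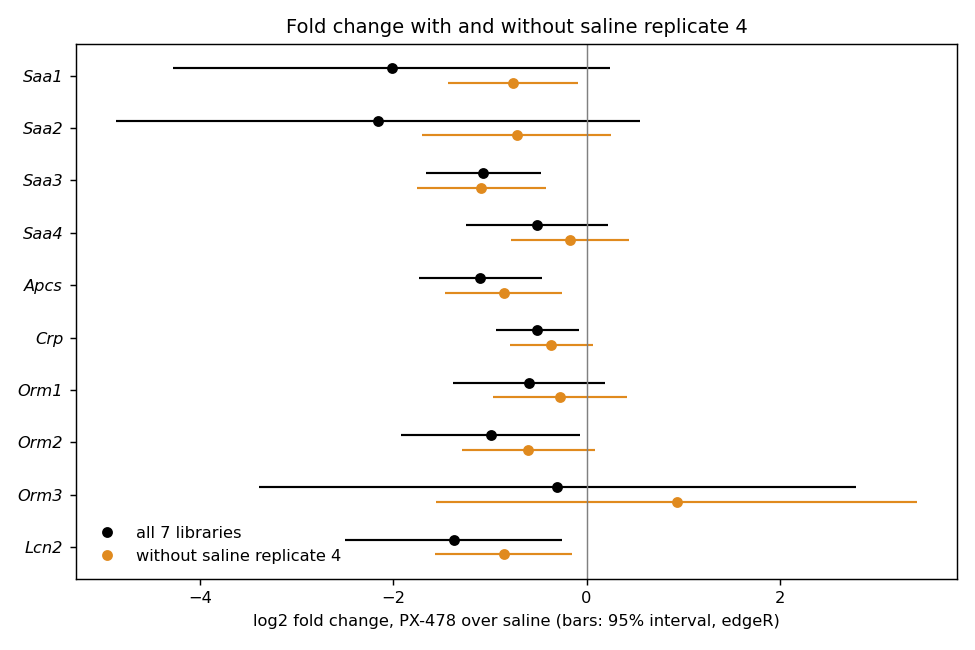
Log2 fold change (PX-478 over saline, horizontal axis) for each gene, with its 95% interval from edgeR, over all 7 libraries (black) and without saline replicate 4 (orange). Without that library Saa1 and Saa2 go to -0.76 and -0.72, Saa3 stays at -1.09 and Orm3 turns to 0.94.

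The authors' deposited table gives nearly the same log2 fold changes and smaller p-values. In the authors' deposited table Saa3 has a log2 fold change of -1.07 and an unadjusted p of 7.16e-05, Apcs -1.10 and 0.000109, Crp -0.51 and 0.000695, and Lcn2 -1.38 and 0.000941. Adjusted here by Benjamini-Hochberg, those p-values of the authors' deposited table fell under 0.05 for Saa1, Saa3, Apcs, Crp, Orm2 and Lcn2, where 9.42% of all genes did in either direction. The table holds 2 count columns for each mouse, which over all genes differed by less than the sampling noise, so each pair was treated as 1 sample. Orm1 and Orm2 in saline replicate 3 were exceptions, as given above. With the 14 columns entered as 14 libraries, edgeR called those 6 genes and Saa2 lower (adjusted p = 0.00479 for Saa3 and 0.0478 for Saa2), against 5.25% of all genes called lower and 4.71% called higher. In that fit the unadjusted p in edgeR was 8.39e-05 for Saa3, 0.000123 for Apcs, 0.000666 for Crp and 0.00107 for Lcn2. These lie near the p-values of the authors' deposited table. With 1 library for each mouse they were 0.00193, 0.00254, 0.0238 and 0.02225 in edgeR. The fit on 14 columns counts each mouse more than once, and the way the authors entered the columns is unknown here.

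Compared per length of the principal transcript (CPM per kilobase, GENCODE M21), the order of the genes was similar in both groups. By group median, Orm1 led at 659 CPM per kilobase in PX-478 and 857 in saline. In PX-478 it was followed by Saa4 at 92.6, Saa3 at 87.5, Saa1 at 62.8, Orm2 at 52.5, Saa2 at 43.8, Lcn2 at 27.8, Crp at 22.8, Apcs at 19.9 and Orm3 at 10.8. In saline Saa3 stood at 181 CPM per kilobase, Saa4 at 145, Saa1 at 109.5, Orm2 at 85.6, Saa2 at 75.3, Lcn2 at 54.0, Apcs at 37.4, Crp at 32.2 and Orm3 at 15.7. Over the libraries of a group, the range of each gene overlapped that of its next neighbour. The exceptions were Orm1, apart from the next gene in both groups, and Crp, apart from Apcs in PX-478. Within each PX-478 library Saa4 still lay above Saa3, Saa3 above Saa1, Orm2 above Saa2 and Saa2 above Lcn2. Within each saline library Saa1 lay above Orm2, Saa2 above Lcn2 and Lcn2 above Apcs. The remaining neighbours changed places between libraries, so the order is not firm there.

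The libraries kept nearly the same order from gene to gene. Within the PX-478 group, replicate 1 was lowest for 9 of the 10 genes, where it was lowest for 31.7% of all genes, and replicate 3 was highest for 9, against 33.6% of all genes. Within saline, replicate 2 was lowest for 9 of the 10, against 24% of all genes, and replicate 4 was highest for 9, against 22.2% of all genes. Orm3 was the exception to both lowest counts, Saa2 to the highest in PX-478 and Saa3 to the highest in saline. The spread within saline was largest for Saa2, Saa1 and Orm3, with coefficients of variation of 127%, 117% and 116%, and smallest for Crp at 21.4%, against a median of 25.6% over all genes tested. From the lowest to the highest saline library Saa2 differed 14.5-fold, Orm3 11.3-fold and Saa1 11.1-fold, while Crp differed 1.65-fold.

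**Figure D4:**
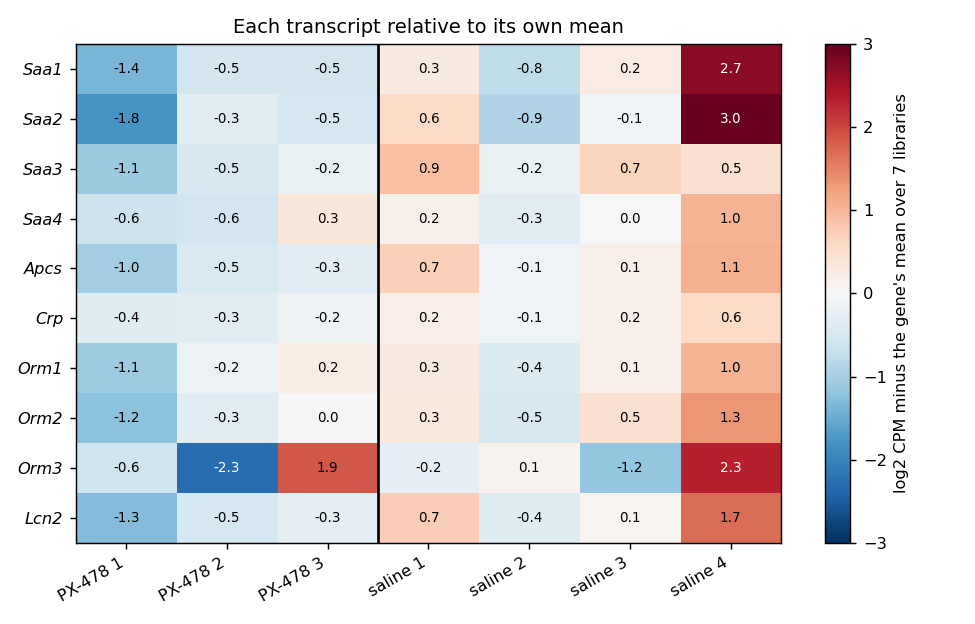
Log2 CPM of each gene minus its own mean over the 7 libraries (colour and printed value), with 3 PX-478 libraries left and 4 saline libraries right of the line. PX-478 replicate 1 is below the mean for every gene, saline replicate 4 is above it for every gene, and Orm3 departs from the others in PX-478 replicates 2 and 3.

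Outside the 10 genes, the profiles nearest to theirs over the 7 libraries were found as the smallest root mean square difference of centred log2 CPM. For Saa1 the nearest were C4a at 0.57, Atp11a at 0.58 and Fam184a at 0.59 log2 units, against 0.27 for Saa2 and a median of 1.28 over all genes. For Orm2 they were Lrg1, an acute phase glycoprotein gene, at 0.21, Cyb561 at 0.22 and the Fc receptor gene Fcgr4 at 0.24, with Orm1 at 0.21. For Lcn2 they were Atp11a at 0.23, Lrg1 at 0.39 and Fcgr4 at 0.39, with Apcs at 0.27. For Saa3 they were Igsf11 at 0.16, Agap1 at 0.18 and the thrombin receptor gene F2r at 0.20, all nearer than Apcs at 0.32. The highest likeness of Saa3 was thus to genes other than the serum amyloids. Likeness over 7 libraries describes these samples only.

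Genes upstream of the acute phase showed no call in either direction in edgeR. Of 4 inducing cytokine genes tested, 0 passed and 4 had values below 0, the median log2 fold change being -0.24. Il6, Osm, Il22 and Il11 were not found by symbol among the 14889 genes, and Lif was under the filter. Il1b, interleukin-1β, stood at 1.09 ± 0.37 CPM in PX-478 and 1.66 ± 1.16 CPM in saline, while Clcf1 had a log2 fold change of -0.29 and Il1a of -0.14. Of 8 cytokine receptor genes 0 passed, with 6 lower and a median of -0.30, the smallest p-values belonging to Il22ra1 at -0.91, Tnfrsf1a at -0.38 and the interleukin-6 receptor gene Il6ra at 0.58. Of 14 transducers and transcription factors 0 passed, with 8 lower and a median of -0.02, the smallest p-values belonging to Rela at -0.24, Myd88 at -0.27 and Nfkb1 at -0.25. Of 7 feedback inhibitors 0 passed, with 4 lower and a median of -0.25, the smallest p-values belonging to Tnfaip3 at -0.90, Il1rn at -0.72 and Nfkbia at 0.37. Larger fold changes with larger SEs, named after their values were seen, were those of Socs3 at -1.003 (SE 0.753) and Socs1 at 0.97 (SE 1.315). Socs3, the STAT3-induced inhibitor, stood at 7.52, 19.97 and 7.64 CPM in PX-478 livers and at 12.4, 11.9, 10.97 and 58.3 CPM in saline livers, so that it too was highest in saline replicate 4.

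Of 21 other positive acute phase genes 0 passed in edgeR, 18 being lower and 3 higher, against 50.3% of all genes lower, and the median log2 fold change was -0.39. The list was not fitted without saline replicate 4. Fgb had 8603 reads in that library, 1438 to 4208 in saline replicates 1 to 3 and 2754 to 3458 in PX-478 livers. By reads, Agt was the only gene of this list not highest there among the saline libraries, with 7686 against 9277 in saline replicate 3. These reads are not scaled, and Cp was close, with about 16700 against 16130 in saline replicate 3. In TMM-scaled CPM, saline replicate 4 was the highest saline library for 22.2% of all genes. Hamp, the hepcidin gene, lay at 1.35 with PX-478 above saline in all libraries, whereas Cd14 lay at -1.16 and Lrg1 at -0.68. The lowest values, named after they were seen, belonged to the metallothionein genes Mt2 at -2.39 (SE 1.69) and Mt1 at -1.71 (SE 1.496). Mt1 stood at 36.6, 31.5 and 241 CPM in PX-478 livers and at 38.4, 49.6, 248 and 1017 CPM in saline livers, with saline replicate 4 highest again. Of 9 negative acute phase genes 0 passed, with 7 lower and a median of -0.31, the smallest p-values belonging to Serpina6 at 0.77, Ttr at -0.57 and Ahsg at -0.48. Of 14 receptor genes for the proteins 0 passed, with 11 lower and a median of -0.31, the smallest p-values belonging to Cd36 at -0.96, Scarb1 at 0.55 and Fcgr4 at -0.77. Of 5 other pentraxin and lipocalin genes 0 passed, with 3 lower and a median of -0.08, the smallest p-values belonging to C8g at -0.50, Ambp at -0.29 and Ptgds at 0.35. At an unadjusted p under 0.05 in edgeR, 1 gene was higher and 1 lower in each of the positive, negative and receptor lists, 1 was lower among the pentraxins and lipocalins, and 0 genes passed in the cytokine, cytokine receptor, transducer and inhibitor lists.

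**Figure D5:**
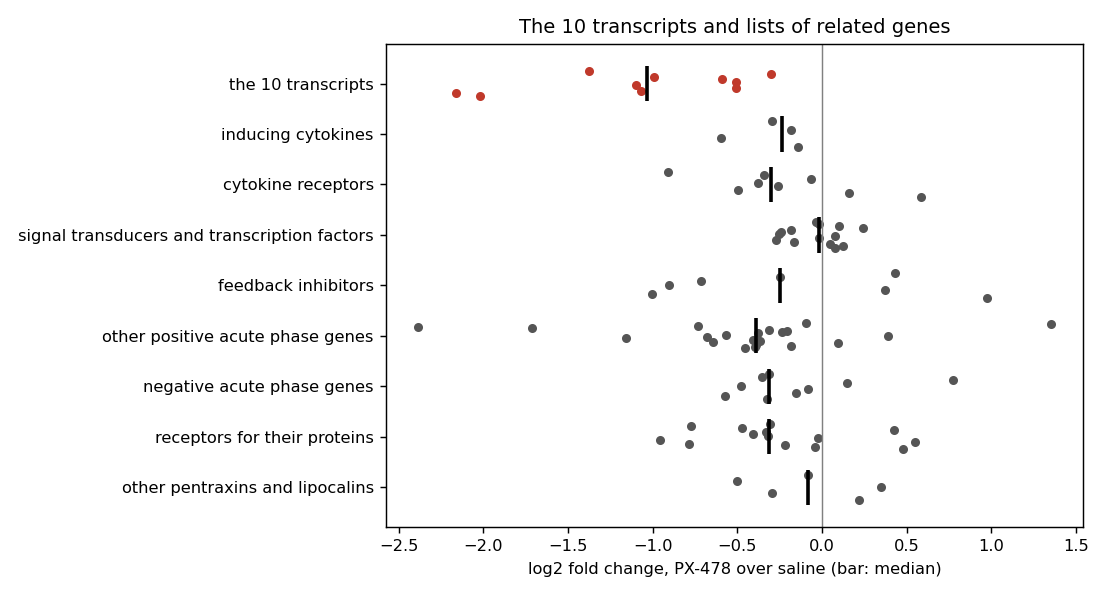
Log2 fold change (PX-478 over saline, horizontal axis) for the 10 transcripts and for the tested genes of 8 lists, each point a gene and each bar the list's median. The 10 transcripts all lie below 0 with a median of -1.03 (-0.66 and 9 of 10 below 0 without saline replicate 4, not drawn), and the medians of the 8 lists lie between -0.39 and -0.02. The list medians include saline replicate 4 and were not computed without it, so they stand beside -1.03 and not beside -0.66.

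Several of these genes are also made by cells other than hepatocytes, so marker levels were set beside them. Of 10 Kupffer cell and macrophage markers all 10 were lower in PX-478, 0 passed and 3 had an unadjusted p under 0.05, against 50.3% of all genes lower and 3.48% lower at that p. Their summed level was 272 to 393 CPM in PX-478 and 283 to 594 CPM in saline. Saline replicate 4 was the highest saline library for each of these 10 markers, against 22.2% of all genes. Marco stood at 49.1 CPM there, at 4.69 to 16.5 CPM in saline replicates 1 to 3 and at 2.93 to 27.15 CPM in PX-478 livers. The log2 fold change of Csf1r was -0.01. In 3 of the 10 (Lyz2, Cd68 and Vsig4) every PX-478 library lay below every saline library. These markers were not fitted without saline replicate 4, but by mean CPM not all 10 stay lower without it. The mean of Marco in PX-478 livers, 17.24 CPM, lay above each of saline replicates 1 to 3. Against the mean of those saline libraries, Csf1r, Clec4f and Cd163 were also higher in PX-478, and the remaining markers were lower. Lyz2 stood at 26.0 ± 2.18 CPM in PX-478 and 56.6 ± 13.6 CPM in saline, and Cd68 stood at 13.8 ± 1.02 CPM in PX-478 and 26.1 ± 3.55 CPM in saline (SD, n = 3 and n = 4). Both genes were without overlap between the groups, as 4.29% of all genes were in this direction (adjusted p = 0.179 for Lyz2 and 0.264 for Cd68 in edgeR). Of 7 markers of lipid-associated macrophages 6 were lower and 0 passed, with sums of 118 to 207 CPM in PX-478 and 194 to 218 CPM in saline. Lgals3 (log2 fold change -0.94, adjusted p = 0.245 in edgeR) and Gpnmb (-2.12, adjusted p = 0.541 in edgeR) had an unadjusted p under 0.05, and in both the groups did not overlap. Of 13 neutrophil markers S100a8, S100a9 and Csf3r were tested, Elane was under the filter and 9 were not found by symbol among the 14889 genes. The tested ones summed to 14.4 to 21.5 CPM in PX-478 and 13.9 to 23.0 CPM in saline. Of 8 adipocyte markers Cfd, Adrb3 and Fabp4 were tested, while Adipoq, Plin1, Lep, Retn and Ucp1 were not found by symbol among the 14889 genes. Cfd alone passed (0.43 ± 0.28 CPM in PX-478 and 25.7 ± 11.3 CPM in saline; adjusted p = 0.000663 in edgeR). Adrb3 went the other way, with a log2 fold change of 0.62, and Fabp4 lay at -0.42. The sums of these markers were 43.9 to 84.7 CPM in PX-478 and 60.8 to 92.6 CPM in saline. Hepatocyte markers summed to 23620 to 29060 CPM in PX-478 and 26310 to 35030 CPM in saline, Alb being the largest part. Of these 6 markers 4 were lower and 2 higher, 0 passed in edgeR, and the median log2 fold change was -0.31. In 2 of them, Ttr at -0.57 and Apob at -0.46, every PX-478 library lay below every saline library, while Cps1 at 0.55 and Cyp2e1 at 0.10 were the higher ones. The part of other cell types in the levels of Saa3 and Lcn2 was not tested. Of the remaining marker lists, endothelial and stellate medians were 0.34 and 0.26, and cholangiocyte and blood cell medians -0.28 and -0.28, with 0 genes passed.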

How the data were processed

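Liver RNA was sequenced from 3 PX-478 and 4 saline mice, grouped by the sample titles. The authors deposited whole-number read counts per gene, not normalized. The submitters' processing notes name featureCounts, edgeR and the build mm10 with no versions; the aligner is not known here. Per the file headers, the authors also deposited log2 fold changes, average log2 CPM, F statistics (a score) and unadjusted p-values. Another 7 columns, averages per sample, stayed out.

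Each sample has 2 count columns. Chi-square per gene, over genes with more than 20 reads, lay between 0.291 and 0.765 for the column pairs and between 49.1 and 145 for different mice in a group, so the rounded mean of both made 1 library, although Orm1 and Orm2 in saline replicate 3 differed beyond sampling noise. The 10 genes were matched by symbol. Genes were filtered with filterByExpr, scaled by TMM and compared with edgeR 4.0.16 (R 4.3.3), by its quasi-likelihood F test with robust dispersions, without covariates. The 13693 genes tested shared a Benjamini-Hochberg adjustment, and calls needed an adjusted p under 0.05. Levels are TMM-scaled CPM. In 1 library 3 reads correspond to 0.188 to 0.26 CPM, and this floor covers counting error only. The test was tried on simulated counts beforehand.

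The 10 genes, the lists, the named genes and the tests were chosen with earlier results of these data known. Named genes are the 10, the 3 nearest profiles of 4 of them, the 3 smallest p-values of each list and the markers set beside a result. Alternatives were other scalings, filters, thresholds and tools (DESeq2 1.42.0, limma-voom 3.58.1), each column, merged copies, a block for the replicate number, each library left out in turn and, chosen after seeing the data, the 14 columns as libraries.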

Additional observations from a re-analysis of the deposited data

Results flagged for a closer look

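In the saline group 3 of the 10 genes had 1 library far from the other 3, measured as the gap to the nearest library divided by the range of the group, beyond Dixon's 95% critical value for 4 samples. The library was saline replicate 4 in each case. The value was 0.896 for Saa1, 0.869 for Saa2 and 0.864 for Orm3. Chance alone passes that value in about 1 in 20 groups, and 6.01% of all genes passed the same value. Saa1 and Saa2 are close copies and are not independent.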

How the results depend on the processing

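No alternative turned the direction of any of the 10 genes except Orm3, whose log2 fold change was 0.071 with the replicate block, 0.05 without PX-478 replicate 1, 0.20 without PX-478 replicate 2 and 0.94 without saline replicate 4 (-2.09 to 0.94 with a library left out); the cause was not tested. The count of the 10 genes called lower was 1 in DESeq2, 7 with 14 columns as libraries, 5 at an unadjusted p under 0.05 and 0 in every fit that left out a library. Over all genes, the number called higher was 4 with library size alone, 46 in DESeq2, 1 with the replicate block, 1 at an adjusted p under 0.1, 477 at an unadjusted p under 0.05, 643 with 14 columns and 0 to 4 with a library left out. The number called lower was 36 in DESeq2, 0 in limma-voom, 2 with the replicate block, 477 at an unadjusted p under 0.05, 717 with 14 columns and 1 to 3 with a library left out. Over all genes, same-numbered samples did not deviate together (correlations -0.0211, -0.0742 and -0.00171), so the numbers were not used as pairs. Such correlations cannot exclude a shared effect on few genes. The block leaves saline replicate 4 in a block of its own. Across all alternatives the log2 fold change ran from -2.34 to -0.74 for Saa1, from -2.50 to -0.70 for Saa2, from -1.27 to -0.85 for Saa3 and from -1.61 to -0.83 for Lcn2.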

Other observations

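The 2 count columns of a sample differed by more than elsewhere for a pair of orosomucoids in saline replicate 3. Orm1 had 10091 reads in one column and 9228 in the other, and Orm2 had 954 and 1163. Among the 70 pairs of columns compared over the 10 genes, these 2 had a chi-square above 10, at 36.2 for Orm1 and 21.2 for Orm2.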
